A study of Mus musculus with 12 samples.

Results

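The 6 genes described here encode inhibitors of the cyclin-dependent kinases (CDKs): Cdkn2a and Cdkn2b, neighbours at the Ink4 locus, their relatives Cdkn2c and Cdkn2d, and the Cip/Kip genes Cdkn1a and Cdkn1b. They were taken by symbol from a table of 24207 genes, and all 6 passed the filter on low counts that left 14520 genes for testing. RNA had been sequenced from C57BL/6 mouse embryonic fibroblasts in 12 libraries, in 4 groups of 3. Every group carried 2 lentiviral vectors, FUW-OSKM for the factors Oct4, Sox2, Klf4 and Myc, and FUW-M2rtTA for the transactivator through which doxycycline turns them on. The uninduced cells carried a scrambled hairpin and received no factor induction. The induced control cells carried the scrambled hairpin and were treated with doxycycline for 7 days. The Trim28 cells were induced in the same way while carrying a hairpin to Trim28, which encodes a co-repressor. The double hairpin cells carried 1 more, to Setdb1, whose product methylates lysine 9 of histone H3 and works with Trim28. All cells were grown in ES medium over a layer of irradiated feeder fibroblasts. The labels do not say that feeders were removed before harvest, and feeder RNA cannot be told apart from that of the cells under study. The hairpin groups exist only with induction, so hairpin effects in uninduced cells were not measured.

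Ink4 proteins bind Cdk4 and Cdk6 and keep them from pairing with D cyclins, which keeps the retinoblastoma protein active and the cell in G1. Cip/Kip proteins bind cyclin-CDK complexes more broadly, and p21, the product of Cdkn1a, is a classical target of p53. Cdkn2a is unusual in giving, from separate first exons, the Ink4a protein and the unrelated Arf protein, which binds Mdm2 and thereby stabilises p53. In fibroblasts several of these genes rise with culture stress and senescence, and the Ink4 locus is known as a barrier to reprogramming by the 4 factors. The deposited counts are per gene, so Ink4a and Arf transcripts of Cdkn2a are summed here.

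Promoters are shown for Cdkn2a, Cdkn2b and Cdkn1a, the 3 inhibitors that fell with induction and rose with both hairpins, and Cdkn2a has a separate promoter for each of its proteins. The sequences are from RefSeq, build GRCm38.p6, and run 5′ to 3′ on the gene's strand up to the start of annotated exons. Capitals mark matches to the motifs searched on both strands. The Arf promoter of Cdkn2a is chr4:89294654-89294869 and the Ink4a promoter chr4:89282193-89282442, both on the minus strand. The Cdkn2b promoter is chr4:89311040-89311282 on the minus strand, and the Cdkn1a promoter is chr17:29090729-29090975 on the plus strand.
Cdkn2a, Arf promoter: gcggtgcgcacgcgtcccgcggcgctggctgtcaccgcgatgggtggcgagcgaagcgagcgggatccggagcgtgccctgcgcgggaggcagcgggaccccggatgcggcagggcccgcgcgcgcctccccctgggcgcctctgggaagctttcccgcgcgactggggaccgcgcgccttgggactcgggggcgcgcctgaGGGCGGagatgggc
Cdkn2a, Ink4a promoter: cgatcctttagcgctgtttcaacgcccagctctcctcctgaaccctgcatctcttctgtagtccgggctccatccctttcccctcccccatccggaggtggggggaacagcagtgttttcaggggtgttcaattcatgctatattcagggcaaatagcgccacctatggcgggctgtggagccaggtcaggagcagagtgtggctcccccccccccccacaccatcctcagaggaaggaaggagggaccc
Cdkn2b promoter: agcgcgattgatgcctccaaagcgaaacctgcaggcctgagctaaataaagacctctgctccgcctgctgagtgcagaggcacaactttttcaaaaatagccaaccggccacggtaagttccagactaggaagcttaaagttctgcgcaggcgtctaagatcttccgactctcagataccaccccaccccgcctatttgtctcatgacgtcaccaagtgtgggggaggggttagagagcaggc
Cdkn1a promoter: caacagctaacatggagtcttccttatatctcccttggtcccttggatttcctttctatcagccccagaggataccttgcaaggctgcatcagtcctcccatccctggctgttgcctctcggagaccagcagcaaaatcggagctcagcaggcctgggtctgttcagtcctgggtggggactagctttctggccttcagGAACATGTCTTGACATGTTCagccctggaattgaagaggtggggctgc

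The Arf promoter was the richest of the 4 in CpG, with 40 CpG dinucleotides and 78.4% G and C in the 250 bases before its start. The Ink4a promoter held 7 CpG and 60% G and C, and the Cdkn2b promoter 12 CpG and 53.6%. Over 32851 mouse promoters the medians were 6 CpG and 52.4%. The GC box (letters GGGCGG) was found in the 250 bases of the Arf promoter and of 32.7% of all promoters, and in none of the other 3 windows. A full p53 response site of 20 bases with at most 1 mismatch, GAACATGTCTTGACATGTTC, lay within the Cdkn1a promoter shown and began 51 bases before the transcript start. Such a site was found in 19 of the 32851 promoters, or 0.0578%. A second Cdkn1a promoter in the same set is not shown, because its window begins within annotated exons. It had 64.8% G and C, 19 CpG, 2 GC boxes and no such p53 site in its 250 bases. The CCAAT box (letters CCAAT) was found in none of the 4 windows, against 33.8% of all promoters. The same held for the E-box (letters CACGTG), found in 6.02% of all promoters, and for the TATA box (letters TATAAA), found in 12.4%. Overlaps between motifs were not removed, and a match describes the letters only.

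Depth, hairpin targets and cell markers set the frame for the values. Libraries held 11906701 to 19191649 counts, and levels are given in CPM, counts scaled to a common library size. Trim28 fell from 328 ± 38.3 CPM (SD, n = 3) in induced control cells to 58.4 ± 5.95 CPM in Trim28 cells and 102.9 ± 6.4 CPM in double hairpin cells. Setdb1 was at 81.2 ± 4.26, 122 ± 1.36 and 63.1 ± 8.21 CPM in these groups, so against induced control cells it fell by 0.36 on the log2 scale in double hairpin cells and rose by 0.59 in Trim28 cells. Uninduced cells held 60.7 ± 4.28 CPM of Setdb1, not detectably different from double hairpin cells (adjusted p = 0.597 by edgeR). Trim28 was 0.82 higher on the log2 scale in double hairpin than in Trim28 cells, so these 2 groups differed in both targets, not in Setdb1 alone. The 8 fibroblast markers had reads in every group and summed to 24537 to 29057 CPM in uninduced cells, 16153 to 23438 in induced control cells, 13703 to 15248 in Trim28 cells and 18437 to 20947 in double hairpin cells. The 6 epithelial markers summed to 23.2 to 25.8 CPM in uninduced and 1713 to 2165 CPM in induced control cells. Of the 8 pluripotent stem cell markers, 5 had no read in uninduced cells, and their sum was 110.1 to 149 CPM in induced control cells. Induced control replicate 2 had the lowest depth and the highest mitochondrial share of all 12 libraries, 2.37% against a lowest share of 1.78%. It also had the lowest fibroblast sum of its group: the sums of induced control replicates 1 to 3 were 23438, 16153 and 19591 CPM. Its epithelial and pluripotent sums, 1857 and 117.9 CPM, lay between those of the other replicates of the group. Replicate 3 had the highest epithelial and pluripotent sums of that group, 2165 and 149 CPM. In bulk RNA, fewer cells of a type and less RNA per cell cannot be told apart.

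Induction lowered 5 of the 6 inhibitors and raised 1, Cdkn2d, at an adjusted p under 0.05 (edgeR quasi-likelihood test, Benjamini-Hochberg over 14520 genes, used throughout). Of all genes tested, 65.3% passed in this comparison, 32.7% upward and 32.7% downward, so a call by itself did not set the inhibitors apart. Their median change was -0.39 on the log2 scale, against -0.02 over all genes. The sizes differed: the fall was deepest for Cdkn2b, at 2.87-fold, and smallest for Cdkn2c, at 1.23-fold.

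**Figure D1:**
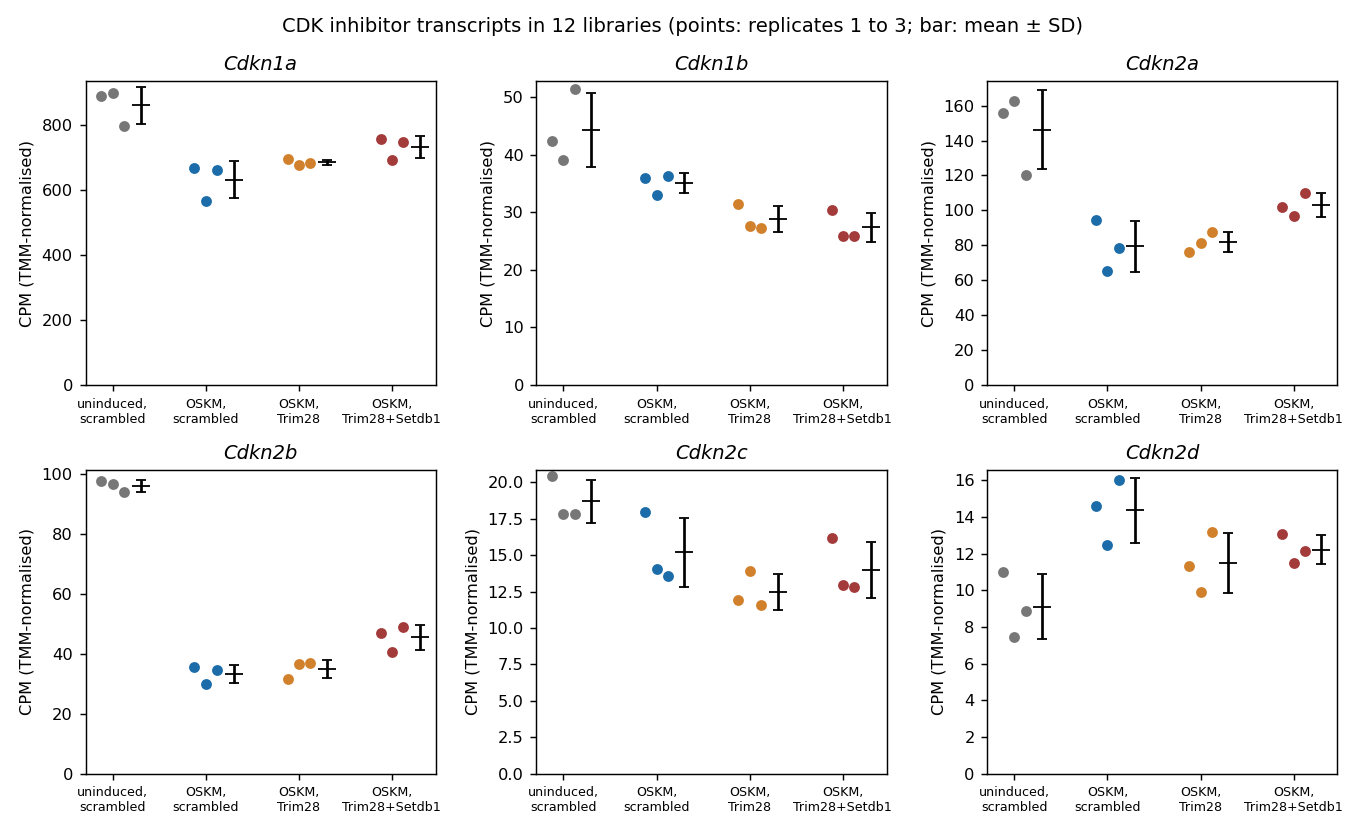
Normalised level (CPM, vertical axes from 0) of each CDK inhibitor in the 12 libraries, with points for replicates 1 to 3 and a bar for the mean ± SD of each group. Cdkn2b separates uninduced from induced cells most widely, with 93.9 to 97.7 CPM against at most 48.8 CPM, and Cdkn2d is the only panel in which induced control cells lie above uninduced cells.

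Cdkn2b (ENSMUSG00000073802, chromosome 4, 89306289 to 89311032), which encodes the Ink4 protein p15, stood at 97.7, 96.7 and 93.9 CPM in the 3 uninduced libraries. The induced control libraries held 35.5, 29.9 and 34.7 CPM, the Trim28 libraries 31.7, 36.7 and 36.8 CPM, and the double hairpin libraries 47.1, 40.7 and 48.8 CPM. Every uninduced library was thus above every induced library, and every double hairpin library above every other induced library. The fall with induction was 1.52 ± 0.09 on the log2 scale (SE, adjusted p = 2.63e-10 by edgeR). Trim28 cells did not differ detectably from induced control cells (log2 change 0.07, 95% interval -0.12 to 0.26, adjusted p = 0.639 by edgeR). Double hairpin cells were higher than induced control cells by 0.44 ± 0.09 (adjusted p = 0.00107 by edgeR). They were also higher than Trim28 cells, by 0.38 ± 0.09 (adjusted p = 0.00654 by edgeR), which tests the difference between the 2 hairpin groups directly. The double hairpin level was still 2.11-fold below that of uninduced cells (log2 change -1.08).

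Cdkn2a (ENSMUSG00000044303, chromosome 4, 89274471 to 89294653) lies 11635 bases from Cdkn2b in the deposited coordinates. Its values were 156, 162 and 120 CPM in uninduced cells, 94.6, 65.3 and 78.7 CPM in induced control cells, 76.1, 81.5 and 87.4 CPM in Trim28 cells, and 102, 96.8 and 110 CPM in double hairpin cells. The induced groups lay wholly below the uninduced group, and the double hairpin libraries lay above all other induced libraries. Induction lowered Cdkn2a by 0.88 ± 0.12 (adjusted p = 8.93e-06 by edgeR), a 1.83-fold fall. The change with the Trim28 hairpin was 0.03 (95% interval -0.22 to 0.29, adjusted p = 0.868 by edgeR). With both hairpins Cdkn2a rose by 0.37 ± 0.12 (adjusted p = 0.0260 by edgeR). Without induced control replicate 2 the change was 0.24 and the call was lost (adjusted p = 0.112 by edgeR). The call was also lost, at changes of 0.35, 0.38 and 0.31, without induced control replicate 3, double hairpin replicate 1 and double hairpin replicate 3 (adjusted p = 0.0771, 0.0555 and 0.110 by edgeR). Between the 2 hairpin groups the difference was 0.33 ± 0.12 (adjusted p = 0.0608 by edgeR), which missed the threshold although no libraries overlapped. That difference passed with no filter on low counts (adjusted p = 0.00110) and with a fit on the 6 libraries alone (adjusted p = 0.00157), both by edgeR.

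The neighbours moved in the same direction but by different amounts. There were 0.667 ± 0.0984 Cdkn2b counts per Cdkn2a count in uninduced cells (SD, n = 3), and 0.425 ± 0.0433 in induced control cells, 0.429 ± 0.0187 in Trim28 cells and 0.442 ± 0.0210 in double hairpin cells. The lowest uninduced ratio, 0.595, was above the highest induced ratio, 0.462, while the 3 induced groups overlapped. For 3 libraries against 3, the two-sided exact permutation test cannot go below p = 0.1, which was its value for each induced group against the uninduced group (adjusted p = 0.2 over 18 ratio comparisons).

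Cdkn2c (ENSMUSG00000028551, chromosome 4, 109660876 to 109667189), which encodes p18, held 20.4, 17.9 and 17.9 CPM in uninduced cells, 17.9, 14.1 and 13.6 CPM in induced control cells, 11.9, 13.9 and 11.6 CPM in Trim28 cells, and 16.2, 12.9 and 12.8 CPM in double hairpin cells. Induced control replicate 1 reached the uninduced range, so these 2 groups overlapped. The fall with induction, 0.30 ± 0.13, was just past the threshold (adjusted p = 0.0495 by edgeR) and was lost in 7 of 14 alternative settings, among them without uninduced replicate 1 or 2 and without induced control replicate 2 or 3 (adjusted p up to 0.203 by edgeR). Against induced control cells neither hairpin group passed the test (log2 change -0.29 and -0.13, adjusted p = 0.123 and 0.472 by edgeR). Against uninduced cells Cdkn2c fell by 0.58 ± 0.13 in Trim28 cells (adjusted p = 0.000793 by edgeR) and by 0.42 ± 0.13 in double hairpin cells (adjusted p = 0.00912 by edgeR), with no overlap of libraries in either comparison.

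Cdkn2d (ENSMUSG00000096472, chromosome 9, 21288463 to 21291209), which encodes p19 of the Ink4 family, was the only inhibitor of the 6 to rise with induction. The uninduced libraries held 11, 7.45 and 8.86 CPM and the induced control libraries 14.6, 12.5 and 16 CPM. In Trim28 cells the values were 11.4, 9.93 and 13.2 CPM, and in double hairpin cells 13.1, 11.5 and 12.1 CPM. The first 2 groups did not overlap, and the hairpin groups lay between them with overlap on at least 1 side. Cdkn2d rose with induction by 0.67 ± 0.15 (adjusted p = 0.000765 by edgeR), a 1.59-fold increase. Against induced control cells its change was -0.33 with the Trim28 hairpin (95% interval -0.63 to -0.03, adjusted p = 0.101 by edgeR) and -0.24 with both (adjusted p = 0.189 by edgeR). There were 0.484 ± 0.0614 Cdkn2d counts per Cdkn2c count in uninduced cells and 0.959 ± 0.192 in induced control cells (exact permutation p = 0.1, the smallest possible, adjusted p = 0.2).

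Cdkn1a (ENSMUSG00000023067, chromosome 17, 29090979 to 29100722) was the most abundant of the 6, in CPM and per length. Its values were 887, 898 and 795 CPM in uninduced cells, 667, 565 and 661 CPM in induced control cells, 693, 677 and 682 CPM in Trim28 cells, and 756, 692 and 746 CPM in double hairpin cells. Uninduced libraries were above all induced ones, and double hairpin libraries above the induced control libraries. The fall with induction was 0.45 ± 0.07 (adjusted p = 5.41e-05 by edgeR), or 26.6% of the level. The Trim28 hairpin gave a change of 0.12 (95% interval -0.04 to 0.27, adjusted p = 0.280 by edgeR), and both hairpins a rise of 0.21 ± 0.07 (adjusted p = 0.0327 by edgeR). Without induced control replicate 2, whose 565 CPM was the lowest of the 12 values, that rise was 0.13 (adjusted p = 0.176 by edgeR). The call was also lost at a change of 0.19 without double hairpin replicate 1 or 3 (adjusted p = 0.115 by edgeR for each). With every library kept, it was lost with RLE size factors (0.19, adjusted p = 0.0510 by edgeR) and in the fit of the 6 libraries alone (0.21, adjusted p = 0.0878 by edgeR).

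Cdkn1b (ENSMUSG00000003031, chromosome 6, 134920401 to 134925513), which encodes p27, was the only inhibitor that fell with both hairpins against induced control cells. It stood at 42.4, 39.1 and 51.5 CPM in uninduced cells, 36.0, 33 and 36.3 CPM in induced control cells, 31.5, 27.6 and 27.4 CPM in Trim28 cells, and 30.3, 25.9 and 25.9 CPM in double hairpin cells. Each uninduced library was above each induced control library, and these were above every library with a hairpin against Trim28. Induction lowered Cdkn1b by 0.33 ± 0.10 (adjusted p = 0.00889 by edgeR), a call lost without uninduced replicate 3 (log2 change -0.21, adjusted p = 0.0584 by edgeR). The Trim28 hairpin gave a change of -0.29 (95% interval -0.51 to -0.07) that missed the threshold at an adjusted p of 0.0538 by edgeR and passed it in 7 of 14 alternative settings. Both hairpins lowered it by 0.36 ± 0.10 (adjusted p = 0.0127 by edgeR). The 2 hairpin groups overlapped and differed by -0.07 (95% interval -0.30 to 0.15), so no difference between them was detectable.

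**Figure D2:**
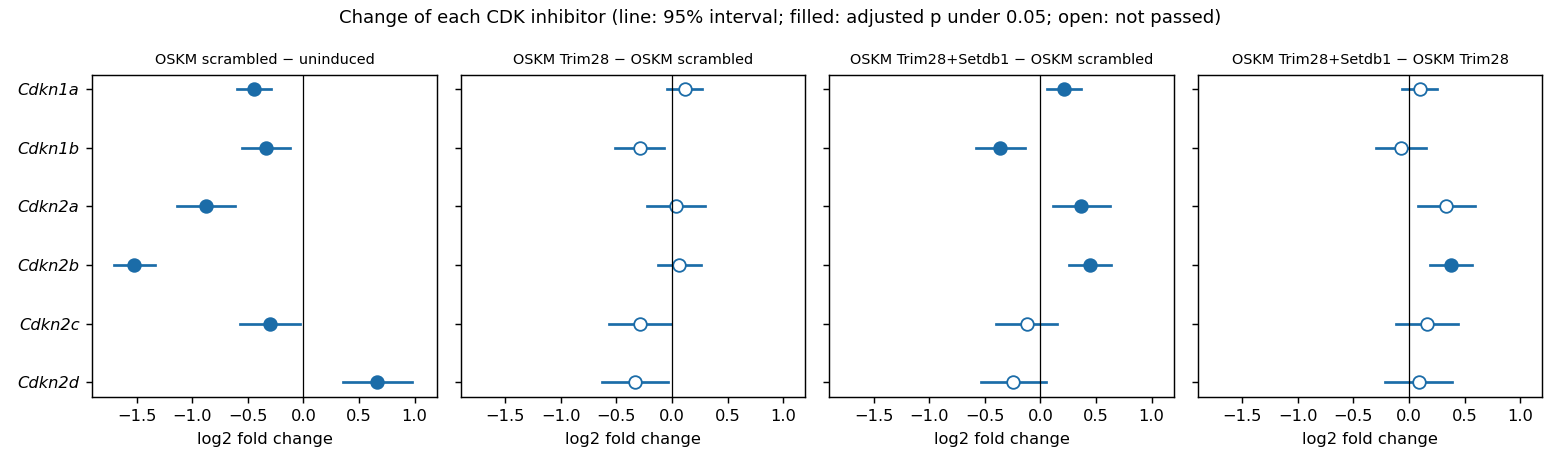
Log2 fold change (horizontal axes) of each CDK inhibitor in 4 comparisons, with a line for the 95% interval and a filled point for an adjusted p under 0.05. In the comparison of double hairpin with induced control cells, Cdkn2b, Cdkn2a and Cdkn1a lie to the right of 0 (0.44, 0.37 and 0.21) and Cdkn1b to the left (-0.36).

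Counted together, 0 of 6 inhibitors passed the threshold between Trim28 and induced control cells, where 24.9% of all genes did (13.1% upward, 11.8% downward). At an unadjusted p under 0.05 by edgeR 3 of 6 passed, Cdkn1b, Cdkn2c and Cdkn2d, all lower in Trim28 cells. The share of all genes at that looser threshold was not counted, so these 3 cannot be set against it. DESeq2 called 1 inhibitor, Cdkn1b, and over all genes 1884 that rose and 1656 that fell. Between double hairpin and induced control cells 4 of 6 passed, 3 upward and 1 downward, where 36.7% of all genes passed, 18.1% upward and 18.5% downward. Between double hairpin and Trim28 cells 1 of 6 passed, Cdkn2b, where 21.7% of all genes passed, 10% upward and 11.7% downward. Calls were thus common among all genes, and the counts are a description of 6 genes only.

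Against uninduced cells, 5 of 6 inhibitors fell and 0 rose in Trim28 cells, where 66.6% of all genes passed, 32.6% downward and 34.1% upward. In double hairpin cells 5 fell and 1 rose, where 58.8% of all genes passed, 27.2% downward and 31.6% upward. Cdkn2d was the exception in both, at 0.34 (adjusted p = 0.0564 by edgeR) and 0.42 (adjusted p = 0.0209 by edgeR). These comparisons share control libraries, so the same libraries enter several of the values. Libraries of the 2 groups did not overlap for 5 of 6 inhibitors with induction (64.6% of all genes), for 2 between Trim28 and induced control cells (38.9%) and for 4 between double hairpin and induced control cells (45.1%). They did not overlap for 2 between double hairpin and Trim28 cells (46.9%), for 5 between Trim28 and uninduced cells (72.8%) and for 6 between double hairpin and uninduced cells (65.6%).

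Per length, Cdkn1a led in every group. Its level was 242 ± 16 CPM per kb of exon in uninduced cells, followed by Cdkn2a at 124.8 ± 19.3, Cdkn2b at 69.1 ± 1.42, Cdkn1b at 9.74 ± 1.41, Cdkn2c at 6.97 ± 0.548 and Cdkn2d at 5.78 ± 1.13 CPM per kb. The last 2 did not differ beyond their spread. In induced control cells the order changed only at the low end, where Cdkn2d, at 9.12 ± 1.13 CPM per kb, came before Cdkn1b at 7.71 ± 0.397 and Cdkn2c at 5.66 ± 0.884. The libraries of Cdkn2d and Cdkn1b overlapped there. As a share of the 6 levels per kb, Cdkn2b dropped from 15.1% of the pool in uninduced cells to 8.23% in induced control cells, while Cdkn1a went from 52.8% to 60.9%. Exon lengths are from GENCODE vM21 on GRCm38. In those transcripts 8.49% of the 50-base windows of Cdkn1a also occur in other genes and none of those of the other 5, so some Cdkn1a reads may have been counted differently from the rest.

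Around the Ink4 locus, 19 genes of the table lay within 500 kb and 7 were tested, the 2 inhibitors among them. Mtap, a methionine salvage enzyme gene on the Cdkn2a side, was at 151.6 ± 7.43 CPM in uninduced and 140.4 ± 12.5 CPM in induced control cells and did not pass the test for induction (log2 change -0.11, adjusted p = 0.167 by edgeR). With both hairpins Mtap was 0.18 higher than in induced control cells (adjusted p = 0.0496 by edgeR), with overlapping libraries. The lincRNA Gm12606, which lies next to Cdkn2a on the side away from Cdkn2b, had 3 to 27 reads per library. It rose with induction, by 0.91 ± 0.39 (adjusted p = 0.0482 by edgeR), and again with the Trim28 hairpin, by 0.92 ± 0.29 (adjusted p = 0.0315 by edgeR). Its direction with induction was thus opposite to that of both inhibitors. At the far end of the window the lincRNA Gm26867 was at 0.179 CPM in induced control cells, 0.582 in Trim28 cells and 1.02 in double hairpin cells (log2 changes 1.64 and 2.45, adjusted p = 0.0304 and 0.000642 by edgeR), on 2 to 26 reads per library. Dmrta1, the nearest protein-coding gene on the Cdkn2b side, had 23 reads in all libraries together and was not tested.

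**Figure D3:**
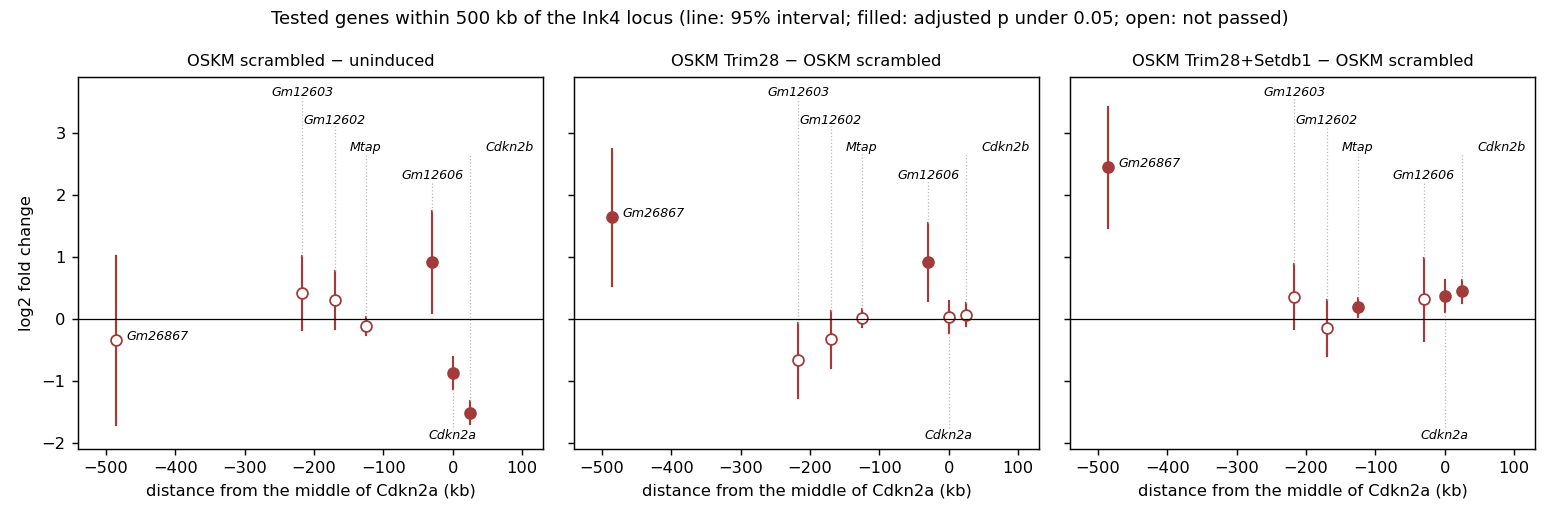
Log2 fold change (vertical axes) of the 7 tested genes within 500 kb of the Ink4 locus against distance from the middle of Cdkn2a (kb), in 3 comparisons, with lines for 95% intervals and filled points for an adjusted p under 0.05. With induction Cdkn2a and Cdkn2b lie at -0.88 and -1.52 while Mtap lies at -0.11.

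Regulators of the Ink4 locus, chiefly Polycomb genes and transcription factors, rose in 11 and fell in 6 of 27 cases with induction (median 0.16), against 32.7% of all genes in each direction. The Polycomb genes Cbx2, from 4.15 to 16.7 CPM, and Phc1, from 25.4 to 53.7 CPM, had the smallest p among those that rose. Bmi1, a Polycomb repressor of the locus, fell with induction (62.9 to 44.6 CPM) and fell further with the Trim28 hairpin, to 27.6 CPM (log2 change -0.69 ± 0.10, adjusted p = 6.68e-05 by edgeR). In Trim28 cells 5 of the 27 rose and 3 fell, where 13.1% and 11.8% of all genes did, and in double hairpin cells 4 rose and 8 fell, where 18.1% and 18.5% did. Cbx2 and Phc1 were among those that fell with both hairpins (-0.97 and -0.53), and Twist1, which rose by 0.63, had fallen by 0.58 with induction.

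A list of 12 genes held the G1 cyclins and their CDKs together with Cdc25a, Cdk7, Ccnh and Mnat1. It split with induction into 4 that rose, 4 that fell and 4 that did not pass (median 0.04). That is near the 32.7% of all genes that moved in each direction. Cdc25a, a phosphatase that activates CDKs, rose from 18.4 to 52.4 CPM and the cyclin gene Ccne2 from 10.9 to 23.5 CPM. The cyclin D2 gene Ccnd2 fell (log2 change -0.81), and so did Cdk4, an Ink4 target, from 328 to 235.3 CPM. In each hairpin group 1 of 12 rose against induced control cells, in both cases Ccnd1 (0.41 and 0.33), and 1 fell, against all-gene shares of 13.1% and 11.8% with the Trim28 hairpin and 18.1% and 18.5% with both. Of 13 Rb and E2F genes 6 rose and 2 fell with induction, where 32.7% of all genes moved each way, with E2f2 up by 1.94 and Rbl2 down by 0.59 on the log2 scale. Trim28 cells had 1 that rose and 2 that fell, where 13.1% and 11.8% of all genes did. Double hairpin cells had 1 and 1, where 18.1% and 18.5% did.

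Genes of the Arf and p53 axis fell in 12 of 17 cases with induction and rose in 3 (median -0.33), where 32.7% of all genes moved each way. Fas, a death receptor gene activated by p53, fell from 43.0 to 13.4 CPM, and Mdm2, which is both the target of Arf and a gene activated by p53, from 472 to 228.3 CPM. Mdm4, a partner of Mdm2, rose by 0.91. With both hairpins 8 of the 17 rose and 2 fell against induced control cells (median 0.22), where 18.1% of all genes rose and 18.5% fell, among them Mdm2, up by 0.57 ± 0.07, and Mdm4, down by 0.80 ± 0.10. With the Trim28 hairpin alone 6 rose and 2 fell (median 0.06), where 13.1% and 11.8% of all genes did, led by Btg2, an antiproliferative gene, which rose from 263 to 452.5 CPM. Trp53 did not pass in any of these 3 comparisons (log2 changes 0.23, 0.03 and 0.16, adjusted p = 0.0747, 0.887 and 0.264 by edgeR). It did pass between double hairpin and uninduced cells, where it was higher in double hairpin cells (138.2 against 105.2 CPM).

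Genes for the turnover of Cip/Kip proteins rose in 4 and fell in 3 of 12 cases with induction, near the 32.7% of all genes that moved each way. Dtl, a receptor of the ligase that degrades p21, rose by 1.24 and Skp2, that for p27, by 1.01. Skp2 fell by 0.68 in Trim28 cells and by 0.82 in double hairpin cells. The 20 cell cycle genes all rose with induction (median 0.96), where 32.7% of all genes rose. Against induced control cells 12 fell and 0 rose in Trim28 cells (median -0.24), where 11.8% of all genes fell, and 15 fell and 0 rose in double hairpin cells (median -0.35), where 18.5% fell. Mybl2 went from 7.76 to 78.0 CPM with induction and to 42.6 CPM with both hairpins. Of 4 further genes with similar symbols, 2 rose and 1 fell with induction, where 32.7% of all genes moved each way, and Cdkn2aip did not pass. The Cip/Kip gene Cdkn1c fell from 40.4 to 23.3 CPM (log2 change -0.78 ± 0.15). The 2 that rose were Cdkn3, a phosphatase gene (by 0.47), and Cdkn2aipnl (by 1.14), so the 1 Cip/Kip gene among the 4 fell.

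**Figure D4:**
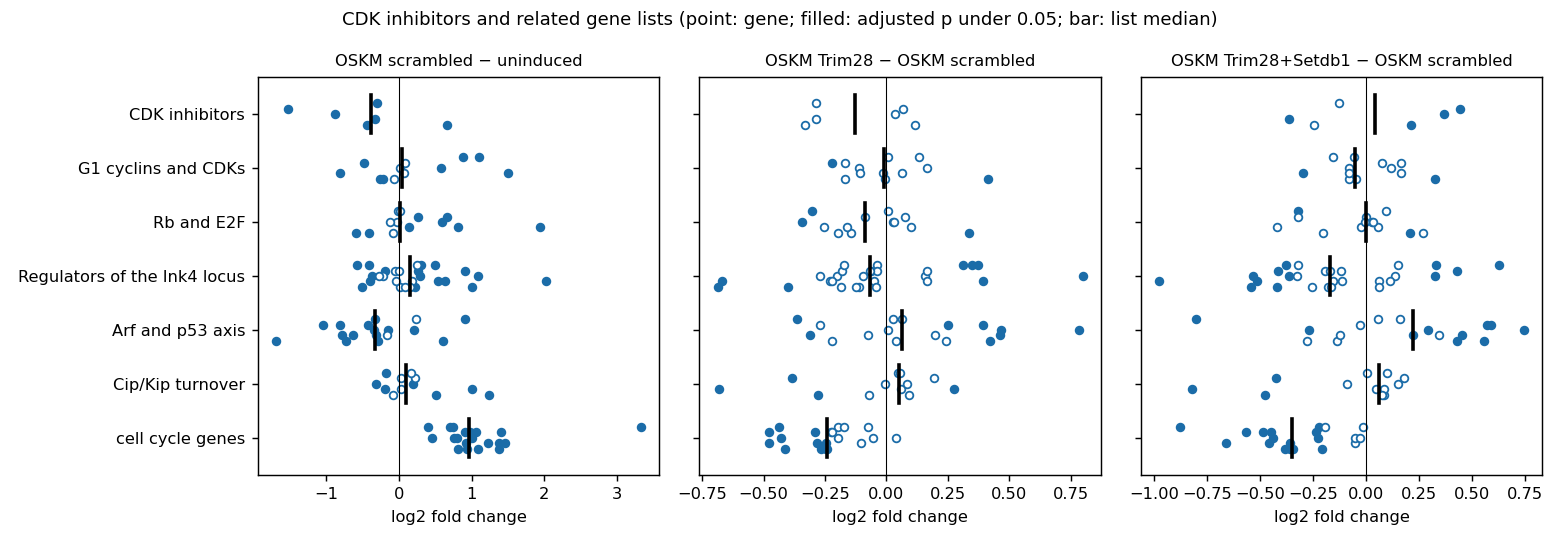
Log2 fold change (horizontal axes, scaled separately in each panel) of single genes by list in 3 comparisons, with filled points for an adjusted p under 0.05 and a bar for each list's median. With induction the medians of the CDK inhibitors and of the Arf and p53 axis lie below 0 (-0.39 and -0.33) and that of the cell cycle genes at 0.96.

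The cell markers moved with several of these results. The fibroblast markers fell in 6 of 8 cases and rose in 1 with induction (median -0.56), where Cdkn2b changed by -1.52. Between double hairpin and Trim28 cells they rose in 4 and fell in 0 (median 0.38), where Cdkn2b changed by 0.38. They fell in 4 and rose in 1 between Trim28 and induced control cells (median -0.29), where Cdkn2b changed by 0.07. With both hairpins 2 rose and 2 fell against induced control cells (median 0.003), where Cdkn2b changed by 0.44. The marker median and Cdkn2b thus moved together in the first 2 of these comparisons and not in the others. Single markers differed: with both hairpins Thy1 and Fbln2 rose against induced control cells, as Cdkn2b did, while Col3a1 and Lum fell. The epithelial markers fell in 6 of 6 cases with both hairpins, to 979.9 to 1214 CPM summed, and the pluripotent markers in 7 of 8, to 43.7 to 68.2 CPM summed, where 18.5% of all genes fell. Muscle markers summed to 11.1 to 16.1 CPM in induced control and 42.9 to 54.6 CPM in double hairpin cells, endothelial markers to 42.9 to 56.7 and 42.3 to 50.5 CPM, and macrophage markers to 13.4 to 18.3 and 7.64 to 9.10 CPM. No read was found for 2 of the 4 muscle markers in induced control cells and for 1 in double hairpin cells. The part of these shifts in the inhibitors' values was not tested.

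For each inhibitor the genes with the most similar pattern were found among 12521 genes, by the root mean square difference of centred log2 CPM over the 12 libraries. The closest to Cdkn2b were the lysosomal gene Hexa (0.112), Thbd and Scpep1, and to Cdkn2a the lysosomal gene Psap (0.0797), Shisa4 and Sh3bgrl3. Hexa stood at 238.2 CPM in uninduced, 99.3 in induced control, 94.6 in Trim28 and 120.1 in double hairpin cells. The closest to Cdkn1a were Cd81 (0.0438), Dlg4 and Ncstn, and to Cdkn1b the cyclin gene Ccng2 (0.0620), Morf4l1 and Sspn. Cdkn2c was closest to Arl16 (0.0952), Invs and Lphn1, and Cdkn2d to the DNA repair gene Rad54b (0.136), Idh2 and Pfdn6. Among the inhibitors themselves Cdkn1b and Cdkn2c were the most alike (0.191), Cdkn2a and Cdkn2b were 0.290 apart, and Cdkn2b and Cdkn2d were the least alike (0.843). The distance is not scaled for the size of a gene's changes, so genes that vary little can lie close together. The inhibitors' own root mean squares ran from 0.180 for Cdkn1a to 0.617 for Cdkn2b. These distances describe 12 libraries that share their 4 groups.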

How the data were processed

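The submitters' processing notes name TopHat2 2.0.12, Bowtie 1.1 and HTSeq. The authors deposited 1 table of raw counts, with 24207 genes and 12 libraries. No source used here names the genome build, and gene positions are those of the deposited table. Strand use in counting is not stated, and no gene of the table overlaps any of the 6. Groups and replicate numbers come from sample titles. Whether replicates were separate cultures is not stated, so p-values reflect spread between samples that may be technical only. Replicates differed by more than counting noise in every pair (chi-square per degree of freedom 1.90 to 17.5).

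The test on counts was edgeR 4.0.16 under R 4.3.3 (two-sided quasi-likelihood test, TMM, all 12 libraries in 1 model with a term for each group, minimum count 10 and total 15, Benjamini-Hochberg over 14520 genes, threshold 0.05), a procedure checked on simulated data. A log2 change carries the model's standard error (SE). CPM values are TMM-normalised, and 3 counts correspond to 0.156 to 0.252 CPM. From each list the genes with up to the 2 smallest p in each direction are named. Bmi1 with induction, and Trp53 in the comparisons where it did not pass, fall outside that rule and were chosen after their values were seen. Alternatives were RLE and upper-quartile factors, DESeq2 1.42.0, limma-voom (limma 3.58.1), no filter, a minimum count of 50, a replicate block, the 6 libraries compared alone, and each library left out. The inhibitors and lists were chosen with earlier results of these data known.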

Additional observations from a re-analysis of the deposited data

How the results depend on the processing

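Of 504 values (the log2 changes of 6 inhibitors in 6 comparisons under 14 alternatives), 460 kept their direction and their side of the threshold, 22 lost a call, 18 gained one and 4 changed sign. The cause of these changes was not tested. Cdkn2b passed under all 14 alternatives in each comparison in which it was called. The sign changes were all of values that had not passed: between Trim28 and induced control cells, leaving out each library gave Cdkn2a -0.0923 to 0.164 and Cdkn2b -0.0103 to 0.127, both lowest without induced control replicate 2, and Cdkn2a was -0.0255 without Trim28 replicate 3. Between double hairpin and Trim28 cells, Cdkn2d ran from -0.0104, without Trim28 replicate 2, to 0.199.

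Between Trim28 and induced control cells, 1 inhibitor passed with upper-quartile factors, with DESeq2, with no filter and with the 6 libraries alone, and 0 to 2 with each library left out. Over all genes, 1323 to 2061 rose and 1179 to 1969 fell there under the 14 alternatives, against 1909 and 1711 in the main fit. Between double hairpin and induced control cells, leaving out each library gave 2 to 4 inhibitors, and RLE factors and the 6 libraries alone gave 3 each, against 4. All-gene counts there ran from 1990 to 2732 that rose and from 1999 to 2988 that fell, against 2633 and 2689. Between double hairpin and Trim28 cells, 2 inhibitors passed with no filter and with the 6 libraries alone, against 1. There 2376 genes rose in the fit of the 6 libraries, against 1452, and leaving out each library gave 772 to 1262 genes that rose and 1028 to 1581 that fell, against 1702. The lowest counts were those without Trim28 replicate 2 (772 rose) and without double hairpin replicate 1 (1028 fell). Against uninduced cells, the rise of Cdkn2d in double hairpin cells was lost without uninduced replicate 2 or 3 or double hairpin replicate 1 (adjusted p up to 0.112), and the fall of Cdkn1a without uninduced or double hairpin replicate 2.

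Same-numbered libraries deviated together chiefly among the induced groups. Over all 18 pairs the correlation ran from -0.23 to 0.31, with 6 pairs over 0.1, and 20 of 36 comparisons gave the best match to the own number. Between 2 induced groups the correlation was positive in every pair (0.03 to 0.31), and the own number matched best for 2 or 3 of 3 libraries. Between uninduced and induced cells the correlation ran from -0.23 to 0.21, and the own number matched best for 0 or 1 of 3. The main tests carry no term for this pairing. Between induced control and double hairpin cells all 3 pairs were over 0.1, and the replicate block left 4 inhibitors called there. With the block 2 inhibitors passed between Trim28 and induced control cells, Cdkn1b (adjusted p = 0.0389 by edgeR) and Cdkn2d (adjusted p = 0.0490), and Cdkn2d passed between Trim28 and uninduced cells (adjusted p = 0.0217). Over all genes, 2012 rose and 1852 fell with the block between Trim28 and induced control cells, against 1909 and 1711 without it. The block changed no other call of an inhibitor. Depth limits Cdkn2c and Cdkn2d most, whose libraries held 116 to 327 reads.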
